A study of Mus musculus with 6 samples.

Results

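The 8 receptors described here, Lpar1, Lpar2, Lpar3, Lpar4 and Lpar6 for lysophosphatidic acid (LPA) and S1pr1, S1pr2 and S1pr3 for sphingosine-1-phosphate (S1P), were those of the 34760 array features whose only gene symbol was 1 of these names. Each receptor had 1 feature. The 6 arrays measured total RNA of mouse embryonic stem cells of strain C57Bl/6, from a line that stably carries GRgp-Y118F. In this chimeric receptor the ligand-binding part of the GCSF receptor is joined to a signalling part of gp130 with the Y118F change, and the controls carry it too. There were 2 arrays labelled LIF/PD (leukaemia inhibitory factor with 1 uM of the MEK inhibitor PD0325901), 2 arrays labelled GCSF (granulocyte colony-stimulating factor) and 2 untreated controls. Treated cells had been without serum for 6 h and were exposed for 1 h, and the sources used here do not say whether serum was also withheld from the controls. They give neither the promoter of the chimeric receptor, nor whether the line was 1 clone, nor whether the replicates were separate cultures, so errors and p-values reflect only the spread between these arrays, which may be technical.

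LPA and S1P are small signalling lipids of the extracellular fluid, and serum is rich in both. They act through G protein-coupled receptors of separate ancestry: Lpar1, Lpar2, Lpar3 and the S1P receptors belong to the EDG family, while Lpar4 and Lpar6 resemble the P2Y nucleotide receptors. Depending on the G protein they couple to, the receptors inhibit adenylyl cyclase or activate phospholipase C, among other effects, and through these routes they act on cell shape, migration, survival and the ERK pathway. Embryonic stem cells meet both lipids in serum-containing medium.

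The receptors were chosen by family name with values of these arrays in view, above all the difference of Lpar6 between the arrays labelled LIF/PD and control. Receptor values of that comparison are therefore a description and are given without p. The other comparisons use some of the same arrays, so their adjusted p-values (limma, over all 16912 tested features) are not independent evidence either. Socs3, the feedback inhibitor of STAT3 signalling, lay 2.62 ± 0.07 log2 above control in the arrays labelled LIF/PD and 3.13 ± 0.07 in those labelled GCSF (SE, n = 2 arrays a group) in the feature with the larger change, and 0.39 ± 0.08 and 0.51 ± 0.08 above in its other feature. Dusp6, an ERK-induced phosphatase gene that a MEK inhibitor lowers, lay at 0.029 ± 0.039 in LIF/PD and at -1.56 ± 0.04 in GCSF, and Spry4, another ERK feedback gene, at 0.046 ± 0.061 and -1.83 ± 0.06. These genes go against the labels of the 2 treated groups, so LIF/PD and GCSF below mean the arrays labelled so, and directions hold for those labels. All 8 stem cell markers examined, among them Pou5f1 and Nanog, lay above the filter on low values, a mean log2 value of 6.70.

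The genomic stretch before a gene's annotated start is shown for the P2Y-like pair because the comparisons turn on Lpar6, and Lpar4 is its nearest relative among the 8. Each stretch holds the 250 bases before the start on the plus strand (RefSeq, GRCm38.p6), at chr14:73237641-73237890 for Lpar6 and chrX:106920375-106920624 for Lpar4, with CG dinucleotides in capitals.
Lpar6: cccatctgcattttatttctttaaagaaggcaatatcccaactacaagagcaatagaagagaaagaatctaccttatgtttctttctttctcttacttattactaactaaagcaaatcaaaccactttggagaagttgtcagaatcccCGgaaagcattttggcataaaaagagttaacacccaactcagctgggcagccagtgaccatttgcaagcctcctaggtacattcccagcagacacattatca
Lpar4: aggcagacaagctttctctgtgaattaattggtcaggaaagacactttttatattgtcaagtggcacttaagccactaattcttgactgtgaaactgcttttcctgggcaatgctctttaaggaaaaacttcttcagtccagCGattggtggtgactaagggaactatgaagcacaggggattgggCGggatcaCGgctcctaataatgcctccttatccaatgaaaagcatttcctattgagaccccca

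The Lpar6 stretch held 1 CG dinucleotide and 39.2% G and C bases, and the Lpar4 stretch 3 and 43.6%, against medians of 6 and 52.4% over 32851 such stretches. Among the EDG family receptors there were 11 for Lpar2, 17 for Lpar3, 14 for S1pr2, 9 for S1pr3, and 11, 28 and 3 at the starts of Lpar1, the last of these with as many as Lpar4 and 41.6% G and C bases. In all, 7 receptors matched the RefSeq table, with 9 stretches. S1pr1 had no entry, so the motif counts that follow do not cover it. The STAT motif TTCNNNGAA, which reads the same on both strands, was in 0 of these 9 and in 7.02% of all stretches. The AP-1 motif TGAGTCA, searched on both strands, was in that of Lpar2 and in 4.46% of all, and the CRE motif TGACGTCA in that of S1pr2 and in 1.55% of all. A match is a description of letters in this window and not a site of binding.

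Lpar6, a P2Y-like LPA receptor whose loss in humans causes sparse hair, had the widest range over the arrays of the 8 receptors, 0.47 log2. Its log2 values were 10.09 and 10.06 in the arrays labelled LIF/PD, 9.62 and 9.62 in those labelled GCSF, and 9.73 and 9.69 in control. Both LIF/PD arrays lay above all 4 others, and replicate arrays differed by at most 0.039. Between the treated groups Lpar6 was 1.37-fold higher in LIF/PD than in GCSF (log2 difference 0.45 ± 0.04, 95% interval 0.36 to 0.54, adjusted p = 0.00197 with limma), and this difference passed under all 15 alternative settings tried. Against control it lay 0.37 ± 0.04 higher in LIF/PD (1.29-fold) and at -0.085 ± 0.040 in GCSF, where it did not pass (adjusted p = 0.450). The order of GCSF below control was thus not beyond the spread in the test, although their arrays did not overlap. With any of the 6 arrays left out, the LIF/PD difference from control lay between 0.35 and 0.39 log2.

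RefSeq places Lpar6 within the span of Rb1, the retinoblastoma gene. The Rb1 feature read 8.97 and 8.99 in LIF/PD, 9.06 and 8.95 in GCSF, and 8.97 and 9.00 in control. Its differences from control were -0.0035 ± 0.052 in LIF/PD and 0.023 ± 0.052 in GCSF (adjusted p = 0.908 with limma), so the feature of the surrounding gene did not show the pattern of Lpar6.

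Lpar4, the other P2Y-like LPA receptor, known for its part in vessel formation, read 8.46 and 8.42 in LIF/PD, 8.31 and 8.28 in GCSF, and 8.49 and 8.48 in control. The GCSF arrays were the lowest and overlapped with neither other group. The difference of GCSF from control was -0.19 ± 0.05 log2 and did not pass after adjustment (adjusted p = 0.193 with limma, unadjusted p = 0.00705), nor did that of LIF/PD from GCSF, 0.14 ± 0.05 (adjusted p = 0.345). LIF/PD lay at -0.044 ± 0.053 from control.

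The EDG family LPA receptors moved little. Lpar1, the LPA receptor first found in the developing cerebral cortex, read 9.10 and 9.06 in LIF/PD, 9.06 and 9.18 in GCSF, and 9.08 and 9.10 in control, with all groups overlapping. Its 95% interval for GCSF minus control ran from -0.090 to 0.15 log2. Lpar2, which couples to the same G proteins as Lpar1, read 7.82 and 7.76 in LIF/PD, 7.69 and 7.91 in GCSF, and 7.83 and 7.88 in control. The GCSF arrays of Lpar2 differed from each other by 0.22, the widest gap between replicates among the receptors, and spanned those of the other groups, while LIF/PD lay just under control. Lpar3, which in mice controls the spacing of embryos in the uterus, had a mean of 6.68, just under the filter of 6.70, and was not tested. It read 6.62 and 6.66 in LIF/PD, 6.67 and 6.67 in GCSF, and 6.68 and 6.79 in control.

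S1pr1, the receptor by which lymphocytes follow S1P out of lymphoid organs and which stabilises blood vessels, was higher under both treatment labels. It read 7.48 and 7.38 in LIF/PD, 7.43 and 7.43 in GCSF, and 7.03 and 7.06 in control. All 4 treated arrays lay above both controls, and the treated groups overlapped. S1pr1 rose 1.31-fold in GCSF over control (log2 difference 0.38 ± 0.07, 95% interval 0.23 to 0.54, adjusted p = 0.0414 with limma). In LIF/PD it lay 0.39 ± 0.07 above control (95% interval 0.23 to 0.55), and LIF/PD minus GCSF was 0.0040 ± 0.069 (95% interval -0.15 to 0.16, adjusted p = 0.992). The call in GCSF was close to its threshold and ended under 11 of 14 alternative settings that gave a value. With limma, leaving out GCSF replicate 1 or 2 gave an adjusted p of 0.178 or 0.117, and leaving out control replicate 1 or 2 gave 0.248 or 0.159. Omitting LIF/PD replicate 1 or 2 gave 0.0839 or 0.0821, while the difference stayed between 0.36 and 0.40 log2 under all 14.

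S1pr1 is found on endothelium, among other cells. Of 8 endothelial markers, Cdh5, Tie1, Emcn and Kdr lay below the filter. The tested 4, Tek, Esam, Egfl7 and Cldn5, differed from control by -0.14 to 0.081 log2 in LIF/PD and -0.076 to 0.065 in GCSF. By limma 0 of 4 were called in either comparison, beside 0.065% and 1.17% of all tested features. At an unadjusted p under 0.05 there were 0 of 4 as well, beside 6.59% and 12.1%. The log2 summed intensity of all 8 was 10.35 to 10.40 in LIF/PD, 10.31 to 10.37 in GCSF and 10.33 to 10.42 in control. These ranges overlapped, and the part of endothelial cells in the difference of S1pr1 was not tested. In a bulk sample, fewer cells of a type and less RNA per cell cannot be told apart.

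S1pr2, which is needed for hearing in mice, read 8.87 and 8.93 in LIF/PD, 8.74 and 8.89 in GCSF, and 8.84 and 8.89 in control, with all groups overlapping. S1pr3, which acts in heart and vessels, read 9.00 and 8.84 in LIF/PD, 8.81 and 8.84 in GCSF, and 8.82 and 8.72 in control. The lower LIF/PD array of S1pr3 lay level with the higher GCSF array at 2 decimals, and its LIF/PD arrays averaged 0.15 ± 0.06 above control, about as far apart as its own 2 arrays (0.15). Neither passed in the comparisons of GCSF with control (adjusted p = 0.825 and 0.782 with limma) or of LIF/PD with GCSF (0.645 and 0.647).

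**Figure D1:**
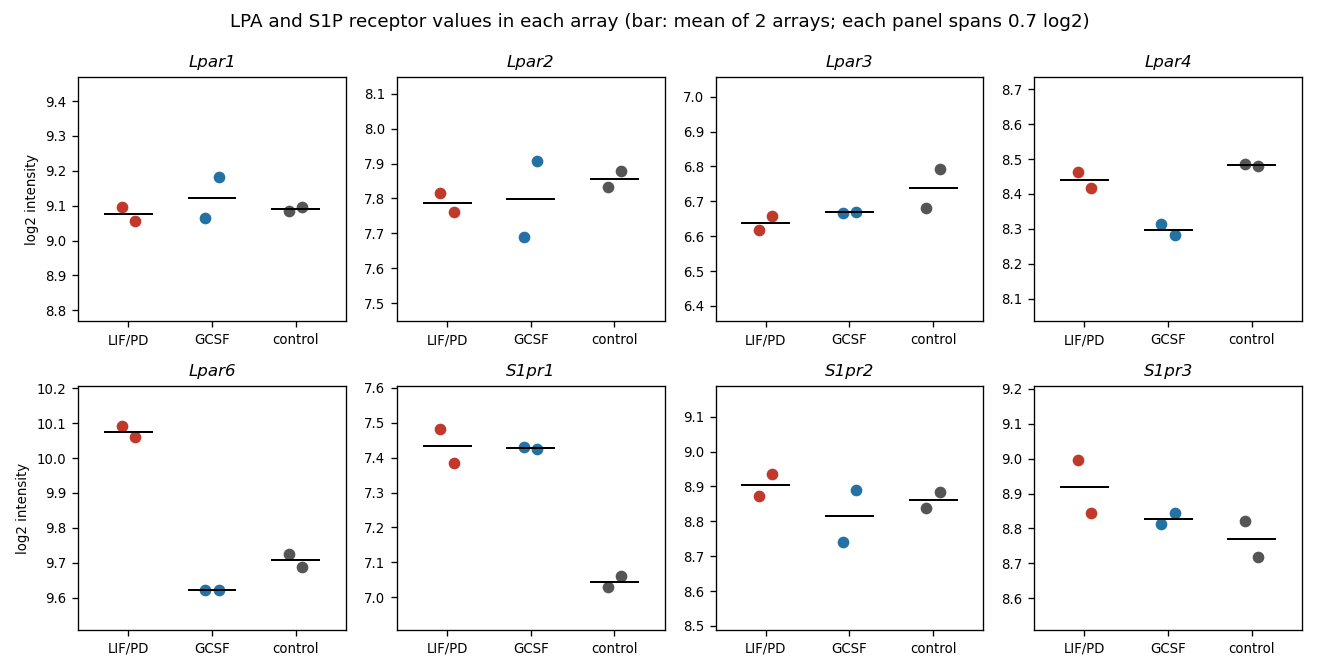
Log2 intensity of each receptor (vertical axis, 0.7 log2 in every panel) in the 2 arrays of each group labelled LIF/PD, GCSF and control, with points for arrays and bars for means. Both LIF/PD arrays of Lpar6 (10.09 and 10.06) lie above the other 4, and both control arrays of S1pr1 (7.03 and 7.06) lie below the other 4.

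Counted together, 1 of the 7 tested receptors was called by limma in GCSF against control (S1pr1), where 1.17% of all tested features were called. In LIF/PD against GCSF 1 was called (Lpar6), where 0.846% of all were. No receptor was called lower in GCSF against control or in LIF/PD against GCSF. At an unadjusted p under 0.05 there were 2 of the 7 in GCSF against control (Lpar4 and S1pr1), beside 12.1% of all tested features, and 2 in LIF/PD against GCSF (Lpar4 and Lpar6), beside 11.8%. Neither count is given for LIF/PD against control, on which the receptors were chosen. Arrays of the groups did not overlap for 3 of 7 receptors in GCSF against control (41.8% of all tested features), for 3 in LIF/PD against GCSF (41.5%) and for 5 in LIF/PD against control (38.4%). The median difference of the tested receptors was -0.046 log2 in GCSF minus control, 0.088 in LIF/PD minus GCSF and 0.042 in LIF/PD minus control, beside 0.0078, 0.0035 and 0.012 for all tested features. Between 4 and 5 of the 7 receptors differed by less than 0.1 log2 in each comparison. The receptors at 0.1 log2 or more were S1pr1 and Lpar4 in GCSF minus control, Lpar6 and Lpar4 in LIF/PD minus GCSF, and S1pr1, Lpar6 and S1pr3 in LIF/PD minus control.

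**Figure D2:**
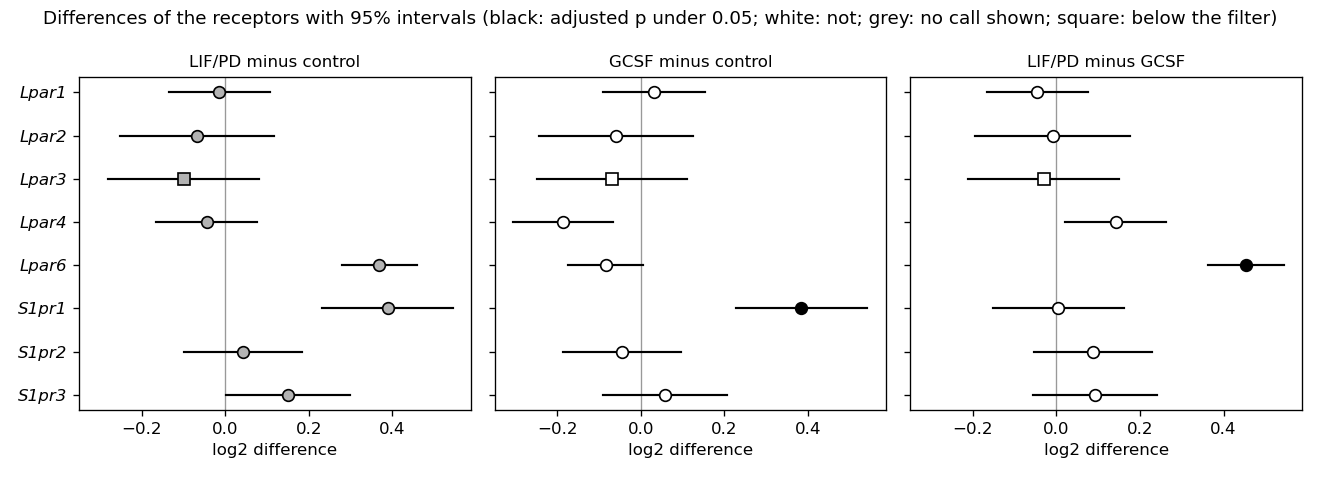
Log2 difference of each receptor with its 95% interval (horizontal axis) in the 3 comparisons, black where the adjusted p was under 0.05, white where it was not, grey in the comparison on which the receptors were chosen, and square for Lpar3, which lay below the filter. Lpar6 stands at 0.37 in LIF/PD minus control and 0.45 in LIF/PD minus GCSF but at -0.085 in GCSF minus control, while S1pr1 stands at 0.39 and 0.38 against control and near 0 between the treated groups.

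**Figure D3:**
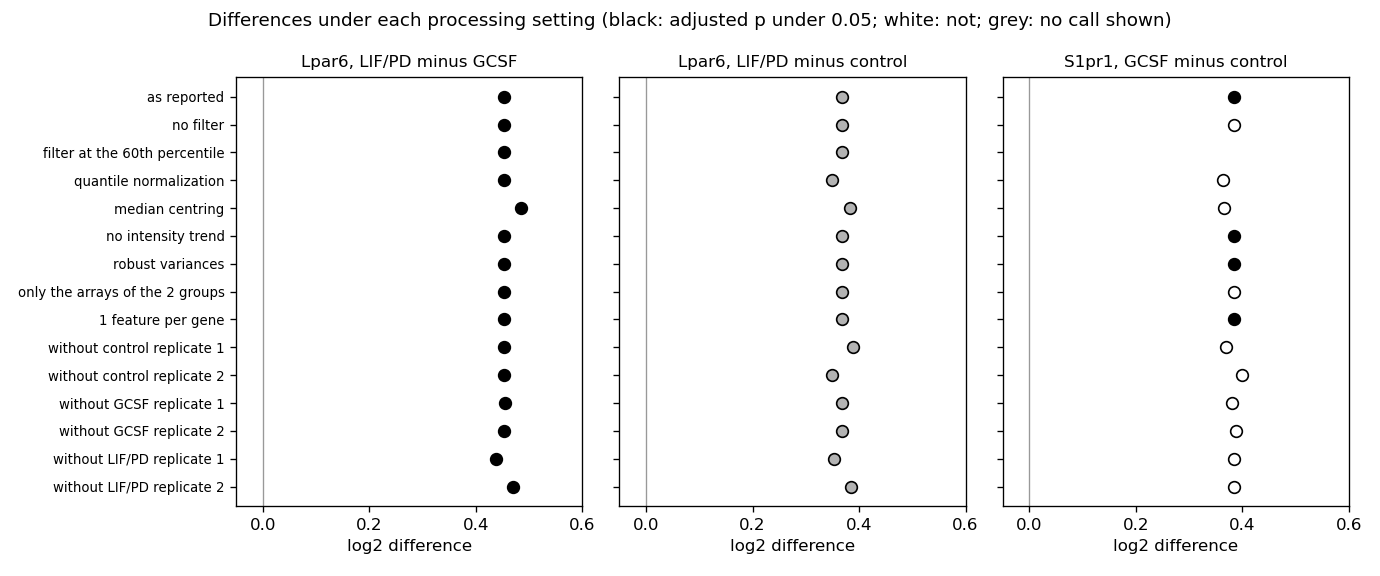
Log2 difference (horizontal axis) of Lpar6 in 2 comparisons and of S1pr1 in GCSF minus control under the settings named at the left, black where the adjusted p was under 0.05, white where it was not, and grey in the comparison on which the receptors were chosen. Lpar6 in LIF/PD minus GCSF is black throughout, while S1pr1 stays between 0.36 and 0.40 and is white under most settings.

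Among the 3471 features with 1 symbol and at least 50% of the range of Lpar6, the most alike over the 6 arrays by Pearson's r were Fgf7 (0.994), Plgrkt (0.975), Tor2a (0.970), Spin4 (0.963) and Tmem126a (0.962). Fgf7 encodes a fibroblast growth factor, Plgrkt a plasminogen receptor and Tmem126a a mitochondrial protein. Fgf7 read 8.02 and 8.01 in LIF/PD, 7.79 and 7.75 in GCSF, and 7.83 and 7.83 in control, and was highest in LIF/PD as Lpar6 was. Of the 5, Tmem126a passed in LIF/PD against GCSF (0.25 log2, adjusted p = 0.0389 with limma), and the other 4 lay between 0.24 and 0.28 log2 without passing.

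For S1pr1, out of 3868 such features, the most alike were Dact1 (0.986), Lrrc2 (0.981), Socs3 (0.976), Cysltr1 (0.970) and Gtpbp8 (0.970). Dact1 encodes a WNT pathway regulator and Cysltr1 a receptor for cysteinyl leukotrienes, another class of signalling lipids. Dact1 read 8.61 and 8.57 in LIF/PD, 8.62 and 8.62 in GCSF, and 8.10 and 8.04 in control, with the GCSF arrays just above the LIF/PD arrays and all 4 above control. Cysltr1 read 6.91 and 6.85 in LIF/PD, 6.83 and 6.84 in GCSF, and 6.64 and 6.71 in control, a smaller step that did not pass in GCSF against control (0.16 log2, adjusted p = 0.422 with limma). These correlations come from 6 arrays in 3 groups that share controls and were picked as the highest of many, so they are a description.

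**Figure D4:**
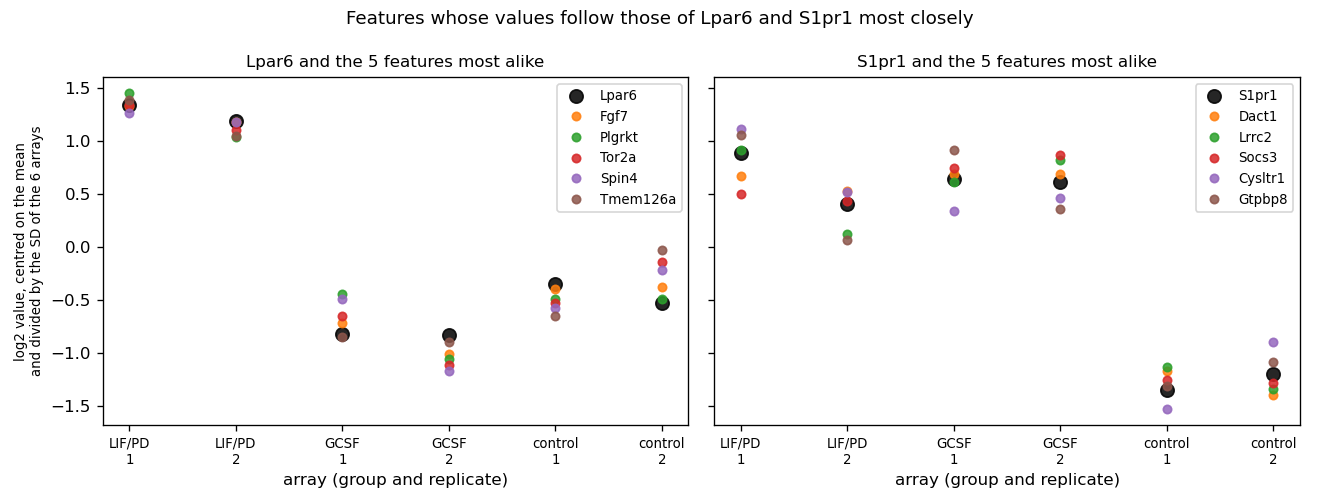
Log2 values of Lpar6 and S1pr1 (black) and of the 5 features most like each (colours) in the 6 arrays, centred on the mean and divided by the SD over the arrays (vertical axis). The Lpar6 panel is high in both LIF/PD arrays, and the S1pr1 panel is low in both control arrays.

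Among the other tested genes of the pathway, Rhob was the only one called in any comparison. Of the receptors not among the 8, S1pr4, found on blood cells, differed by 0.14 ± 0.08 log2 in LIF/PD and -0.0055 ± 0.082 in GCSF from control and did not pass. S1pr5, known from natural killer cells and oligodendrocytes, lay below the filter and was not tested, at 6.52 and 6.47 in LIF/PD, 6.84 and 6.79 in GCSF, and 6.61 and 6.55 in control. Its GCSF arrays were thus the highest and did not overlap with the others. Lpar5 was not analysed here.

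Genes that make, export and break down the lipids gave 15 tested features of 14 genes. By limma 0 were called in any comparison, beside 0.065% to 1.17% of all tested features. At an unadjusted p under 0.05 there were 0 of these features, beside 6.59% to 12.1% of all. Their median differences were 0.017 in LIF/PD and 0.011 in GCSF from control, and their extremes lay between -0.13 and 0.15 log2. Those with the smallest p were Plpp2, a lipid phosphatase gene (-0.087 ± 0.040 in GCSF minus control), Liph, a phospholipase gene (0.15 ± 0.07 in LIF/PD minus control), the sphingosine kinase gene Sphk2 (-0.11 ± 0.05 in LIF/PD minus control) and Spns2, the S1P exporter gene (-0.13 ± 0.08 in LIF/PD minus control). The main LPA-making enzyme gene, Enpp2, was not analysed here. No gene of this list thus passed, and since so few of all features did, nothing is read from that.

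Among 23 tested features of 22 genes for G proteins and effectors, 1 rose in GCSF against control and 1 fell in LIF/PD against GCSF. Of all tested features 1.17% and 0.846% were called in these comparisons. Both calls of the list were Rhob, a small GTPase gene that growth factors induce. Rhob read 8.11 and 8.04 in LIF/PD, 9.44 and 9.32 in GCSF, and 8.16 and 8.04 in control, so only its GCSF arrays stood apart. The rise was 1.28 ± 0.07 log2 (adjusted p = 5.13e-05 with limma), while the 2 features of Rhoa, another small GTPase gene, differed by 0.075 ± 0.032 and -0.015 ± 0.031 and did not pass. Rhoc (-0.14 ± 0.04 in GCSF minus control), the inhibitory G protein gene Gnai1 (0.20 ± 0.06 in LIF/PD minus control) and the kinase gene Rock1 (0.16 ± 0.06 in GCSF minus control) did not pass. The list medians were 0.032 in LIF/PD and 0.038 in GCSF minus control.

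Of 16 related receptors on the array, 4 were tested. By limma 0 of them were called in any comparison, beside 0.065% to 1.17% of all tested features. In LIF/PD against control 1 had an unadjusted p under 0.05, beside 6.59% of all. That was P2ry1, a nucleotide receptor gene, at 0.17 ± 0.07 log2 in LIF/PD minus control. P2ry2 and P2ry6, nucleotide receptor genes as well, and Gpr3 lay at 0.054, 0.11 and -0.072 in that comparison. In LIF/PD minus GCSF these 4 lay between 0.072 and 0.12, with a median of 0.090 beside 0.45 for Lpar6.

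**Figure D5:**
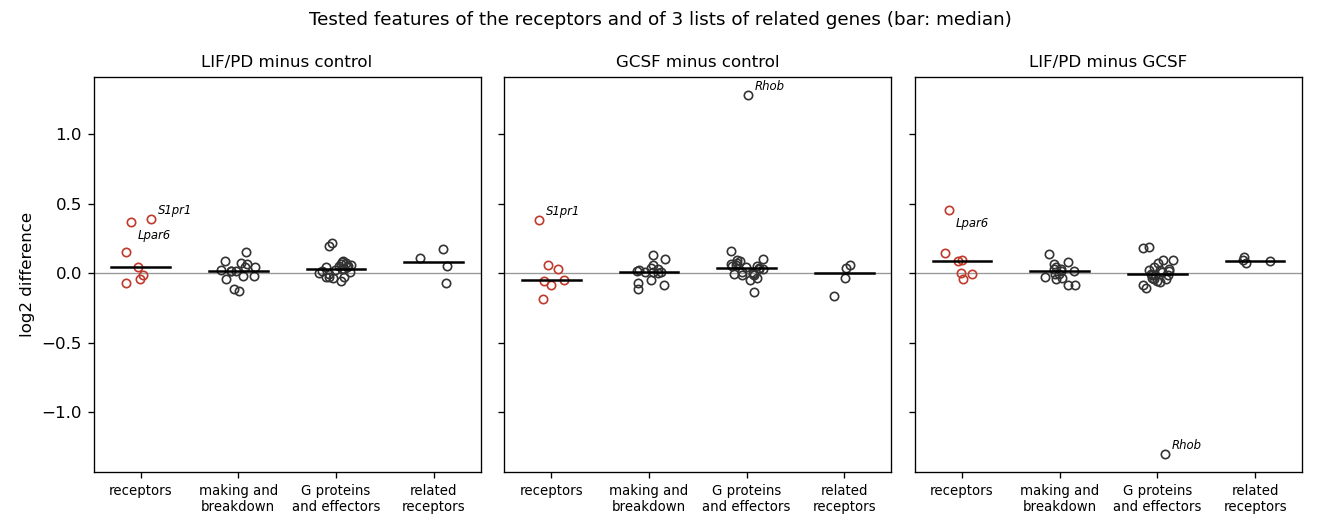
Log2 difference (vertical axis) of each tested feature of the receptors and of 3 lists of related genes in the 3 comparisons, with bars for medians. Rhob (-1.31 in LIF/PD minus GCSF and 1.28 in GCSF minus control) lies farthest from 0, followed by Lpar6 and S1pr1. The other points lie between -0.19 (Lpar4 in GCSF minus control) and 0.22 (Gna15, a G protein gene, in LIF/PD minus control).

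Markers of other cells were set beside these values. In GCSF against control 1 of 7 tested fibroblast markers (Col3a1, 0.29 ± 0.05 log2) and 1 of 6 tested primitive endoderm markers (Lama1, 0.43 ± 0.05) rose. Of all tested features 1.17% were called there. In LIF/PD against control 0 of either list were called by limma, beside 0.065% of all tested features. At an unadjusted p under 0.05 there were 0 and 2 (Pdgfra at 0.13 and a Dab2 feature at 0.12 log2) in that comparison, beside 6.59% of all. The log2 summed intensity of all 8 fibroblast markers was 13.27 to 13.29 in LIF/PD, 13.27 to 13.29 in GCSF and 13.27 to 13.29 in control. That of the 9 features of 8 primitive endoderm markers was 11.32 to 11.33 in LIF/PD, 11.33 to 11.34 in GCSF and 11.22 to 11.27 in control. This sum, in which the brightest features weigh most, thus lay above control in both treated groups, as S1pr1 did. The mean log2 value of the same features was 7.343 to 7.362 in LIF/PD, 7.373 to 7.395 in GCSF and 7.299 to 7.342 in control. Arrays did not overlap with control for 38.4% of all tested features in LIF/PD and 41.8% in GCSF. The sum of the 8 stem cell markers also lay above control in both treated groups. That sum was 15.43 to 15.46 in LIF/PD, 15.43 to 15.44 in GCSF and 15.39 to 15.42 in control. The endoderm genes did not all move alike. Against control, Lama1 lay at 0.089 in LIF/PD and 0.43 in GCSF, and Gata6 at -0.083 and 0.023. The part of either list in the difference of S1pr1 was not tested. Of the 8 stem cell markers, 1 rose and 0 fell in GCSF against control by limma. At an unadjusted p under 0.05 there were 4 of them, beside 12.1% of all tested features. Tdgf1 rose (0.30 ± 0.03), while Utf1 lay at -0.16 ± 0.03 (adjusted p = 0.0527 with limma), Nanog at 0.10 ± 0.03 and Sox2 at 0.10 ± 0.04 without passing. The other 4 lay between -0.057 (Dppa5a) and 0.040 (Esrrb), also without passing.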

How the data were processed

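Total RNA of 6 samples was biotin-labelled and measured on single-colour arrays, per the labels. The deposited values, between 2.29 and 14.50, were read as log2 intensity from their range, since the sources used here give neither the log base nor the authors' background correction, summarization and normalization. Array medians lay between 7.11 and 7.16. Symbols came from the platform annotation. A block of 6573 unannotated features was left out. Of 28187 others, the 16912 whose mean reached the 40th percentile (6.70) entered the test. A model with 1 mean for each group, over all arrays, was fitted with limma 3.58.1 in R 4.3.3, with an intensity trend in the variances. It had 3 residual and 8.4 total degrees of freedom. Tests were two-sided, with Benjamini-Hochberg adjustment over all tested features and calls at an adjusted p under 0.05. Differences of features below the filter came from a fit without it. Errors are SE. The number of arrays, 2 a group, limits the precision. The fit was also run on data simulated with normal errors from its own variances, which cannot show that the model suits these arrays.

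The receptors and gene lists were chosen with earlier results of these data known. Named genes were the 8 receptors, Socs3, Dusp6, Spry4, Rb1, called members of each list and up to 4 with the smallest p, and the 5 features most like each called receptor. Other list or marker genes were named after their values were seen. Other settings tried were a replicate block, filters, normalizations, variance models, fewer arrays, 1 feature per gene, and each array left out.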

Additional observations from a re-analysis of the deposited data

Results flagged for a closer look

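Arrays labelled LIF/PD and GCSF differed for Lpar6 by limma's test of LIF/PD minus GCSF (0.45 log2, adjusted p = 0.00197, both LIF/PD arrays above both GCSF arrays). The receptors were chosen with Lpar6 in these LIF/PD arrays in view, so this is not independent evidence. Among genes of the lists the same test gave -1.31 for Rhob (adjusted p = 7.32e-05), -0.34 for the laminin gene Lama1 (0.0232), 0.23 for Utf1 (0.0137) and -0.17 for Tdgf1 (0.0434), the last pair being stem cell transcripts. With 2 arrays a group no single array could be tested as lying far from its group.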

How the results depend on the processing

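Over 15 alternative settings, 294 of 312 receptor differences kept their side of the threshold, 18 lost their call and 0 called differences reversed. Most of the 312 had no call in the main fit and so none to lose. The 294 therefore says little about how stable the calls were. Differences that were not called could change sign, as Lpar1 in GCSF minus control did (-0.027 to 0.090 log2). The lost calls were S1pr1 in GCSF against control and Lpar6 in LIF/PD against control (S1pr1 adjusted p 0.0513 to 0.248 where lost, by limma). Features called in GCSF against control numbered 198, or 125 without an intensity trend and 88 to 164 with an array left out. In LIF/PD against control there were 11, or 17 with median centring, 27 with 1 feature per gene, 1 without the trend and 1 to 7 with an array left out. In LIF/PD against GCSF there were 143, or 71 without the trend, 82 with only the arrays of both groups and 30 to 91 with an array left out. For receptors in GCSF against control the count was 1, and 0 by limma with no filter, the 60th percentile filter, quantile normalization, median centring, only the 2 groups, or any array left out (1 to 3 at an unadjusted p under 0.05). S1pr1 had no value at the 60th percentile. For LIF/PD against control, on which the receptors were chosen, no receptor count is given. Lpar6 lost its call there without the trend and with any array left out, and nothing is read from its calls. With the replicate number as a block, receptors called in GCSF against control dropped to 0 (S1pr1 adjusted p = 0.0595) and all features called were 195, 9 and 165 in the order above. Same-numbered arrays deviated together weakly (correlations 0.0071, 0.084 and 0.099), so the numbers were not taken as pairs. Fewer arrays cost power, and the cause of the other changes was not tested.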
